A study of Mus musculus with 2 samples.

Results

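Il17a, Il17f and Il22, with Iltifb, the near copy of Il22 in the mouse genome, were followed in single nuclei of sorted intestinal CD4+ cells according to the nuclei that carried their RNA. The members were the 4 rows of these names among the 32285 genes of the deposited matrices, together with the accessibility peaks within 50 kb of their start sites. Joint single-nucleus RNA and chromatin accessibility libraries (10x Multiome, in which both readouts come from the same nucleus) were made from mice 26 to 33 weeks old. The knockout library came from CD4creZfp362flox/flox mice, in which Cre under Cd4 control deletes a floxed Zfp362 (sample title Zfp362-/-), and the control library from Zfp362flox/flox mice, which carry the floxed alleles without Cre and whose sample title reads Zfp362+/+. In both groups, cells of colon and small intestine combined were sorted for CD4 and CD44 and against CD62L, CD8a, F4/80, CD45R and CD11c, and were labelled as effector T cells. The design text mentions 7 mice without a split by genotype, and each genotype had 1 library, so no test across samples exists. Zfp362 encodes a zinc-finger protein, and the series title names inflammatory responses of T cells and Th17 differentiation as its subjects. The labels do not tie nuclei to single animals, so the spread between mice cannot be seen.

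IL-17A and IL-17F are secreted as homodimers or as a heterodimer and signal through the receptor chains IL-17RA and IL-17RC on epithelial and stromal cells, where they induce chemokines and antimicrobial peptides. IL-22 belongs to the IL-10 family and acts through IL-22RA1 and IL-10RB on gut epithelium, where it is known for barrier defence and repair. In the intestine, these cytokines are made by Th17 cells and other T cells, and also by group 3 innate lymphoid cells (ILC3), which lack the T-cell receptor and its CD3 chains and respond, like Th17 cells, to IL-23 and IL-1. A sort on CD4 does not by itself separate both sources, since part of the ILC3 population carries CD4.

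Il17a (ENSMUSG00000025929) lies on mouse chromosome 1 at 20730905 to 20734496 on the plus strand, and Il17f (ENSMUSG00000041872) at 20777146 to 20790617 on the minus strand, in GENCODE vM21 on GRCm38 (mm10). The start sites given for both genes in the feature table lie 53.4 kb apart. Il22 (ENSMUSG00000074695) lies on chromosome 10 at 118204942 to 118210047 on the plus strand, and Iltifb (ENSMUSG00000090461) at 118289629 to 118295038 on the minus strand, with 90.1 kb between their starts. The 150 bases before each start in the feature table are shown because accessibility at 3 of these starts is compared below with the RNA, and because they show where Il22 and Iltifb share sequence. They are from RefSeq promoter windows on GRCm38.p6, at chr1:20730755-20730904 (plus) for Il17a, chr1:20784271-20784420 (minus) for Il17f, chr10:118204792-118204941 (plus) for Il22 and chr10:118295039-118295188 (minus) for Iltifb, with matches to 4 motifs in capitals.
Il17a: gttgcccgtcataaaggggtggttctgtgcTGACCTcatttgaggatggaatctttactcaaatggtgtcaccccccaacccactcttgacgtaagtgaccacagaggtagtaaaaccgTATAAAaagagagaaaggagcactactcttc
Il17f: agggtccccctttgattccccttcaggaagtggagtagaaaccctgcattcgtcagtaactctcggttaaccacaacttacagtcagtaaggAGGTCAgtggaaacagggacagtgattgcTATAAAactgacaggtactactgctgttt
Il22: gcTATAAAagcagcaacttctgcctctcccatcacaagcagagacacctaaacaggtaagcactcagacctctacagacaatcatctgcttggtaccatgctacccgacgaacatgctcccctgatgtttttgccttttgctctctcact
Iltifb: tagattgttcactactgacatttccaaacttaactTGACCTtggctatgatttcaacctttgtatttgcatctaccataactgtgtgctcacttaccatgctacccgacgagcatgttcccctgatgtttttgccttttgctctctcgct

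The letters AGGTCA (a half-site bound by nuclear receptors), TTCNNNGAA (a STAT motif), TGANTCA (an AP-1 motif) and TATAAA (the TATA box) were searched on both strands, the last of them added after the sequences had been seen. AGGTCA occurred once in Il17a and once in Iltifb on the minus strand, as TGACCT, and once in Il17f on the plus strand, and it is present in 8.58% of 32851 promoter windows of the same length. TATAAA, present in 7.57% of them, began 31 bases before the start of Il17a and 29 bases before that of Il17f, but 148 bases before that of Il22. The RefSeq start of Il22 lies 22 bases after the start used here, which is that of the feature table, and TATAAA lies 170 bases before it. For the other 3 genes both starts are the same. How far the position of TATAAA in Il22 depends on the annotated start was not tested. TTCNNNGAA and TGANTCA, present in 4.09% and 4.24% of windows, matched none of the 4 stretches, and no matches overlapped. Over the last 57 bases before their starts in the feature table, Il22 and Iltifb were identical at 54. Their transcripts (1110 and 1111 bases) were identical at 97.3% of aligned positions, and 24.1% of the 90-base stretches of Iltifb occur unchanged in Il22. Reads from such stretches cannot be assigned to one of the genes by sequence, and how they were counted is not given in the sources used here.

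After filtering, 2346 of 2391 knockout and 4176 of 4223 control barcodes remained as nuclei, and 11 barcode sequences occurred in both libraries. A nucleus was called Cd3-positive with at least 1 molecule, counted by unique molecular identifier (UMI), of Cd3d, Cd3e and Cd3g together, which held for 1384 knockout and 2469 control nuclei, against 962 and 1707 with none. Nuclei were further divided at 4000 gene UMIs, since a Cd3 UMI is found more readily in a deep nucleus. Up to 4000 UMIs, the knockout library had 882 Cd3-positive and 892 Cd3-negative nuclei with median depths of 2133 and 1927 UMIs, and the control library 2030 and 1645 with 1982 and 1833. Above 4000 UMIs, 502 knockout and 439 control nuclei were Cd3-positive, against 70 and 62 Cd3-negative ones. The label of T cells was not borne out by the markers of all nuclei. Up to 4000 UMIs, Kit, a receptor tyrosine kinase of ILC3, was found in 8.16% of Cd3-positive and 48.1% of Cd3-negative knockout nuclei, and in 8.23% and 46.2% of control nuclei. Trac, the T-cell receptor alpha constant gene, was found in 62.0% and 18.8% of knockout and in 63.5% and 19.9% of control nuclei, so the Cd3-negative groups also hold nuclei with T-cell receptor RNA. All 10 genes of a T-cell list were detected in each group and summed to 5484 CPM, which is UMIs per 1000000 UMIs of the group, in Cd3-positive and 2153 CPM in Cd3-negative knockout nuclei, and to 5031 and 1949 CPM in control nuclei. All 9 genes of an ILC3 list were detected as well, with sums of 3867 and 4478 CPM in the knockout and 3778 and 4574 CPM in the control. Tox, which T cells also express, made up most of the Cd3-positive sums, and the other 8 genes summed to 1080 CPM in Cd3-positive and 2904 CPM in Cd3-negative knockout nuclei, and to 1091 and 2994 CPM in control nuclei. A dendritic or myeloid list of 6 genes summed to 84.7 and 424 CPM in the knockout and 90.7 and 420 CPM in the control. Zbtb46 alone carried these sums, and the other 5 genes together had 1.49 and 16.5 CPM in the knockout and 3.01 and 12.2 CPM in the control. The part of other cell types in the results was not tested. Zfp362 itself had 13 UMIs in Cd3-positive knockout nuclei and 52 in control nuclei up to 4000 UMIs (6.47 and 12.0 CPM), a log2 ratio of -0.85 (-1.90 to 0.00). Above 4000 UMIs it had 39 UMIs in Cd3-positive knockout and 20 UMIs in Cd3-positive control nuclei (7.68 and 6.70 CPM, 0.18, -0.62 to 1.05), so it was not lower in the deeper knockout nuclei. The labels do not say which exons are deleted, so these counts do not check them. Cd4 stood at 789 CPM in Cd3-positive knockout nuclei and at 267 CPM in control nuclei up to 4000 UMIs, and at 677 and 248 CPM above. In Cd3-negative nuclei it had 442 and 262 CPM up to 4000 UMIs, and 313 and 189 CPM above. The part of this difference in the results was not tested.

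Il22 was the most abundant of the 4 genes, and its level was higher in nuclei without Cd3 RNA. Summed over all depths, 6131 of its 11380 UMIs in the knockout and 4164 of its 12573 UMIs in the control lay in Cd3-positive nuclei, of which those above 4000 UMIs held 5306 and 3053. Up to 4000 UMIs, the knockout library had 411 CPM (exact Poisson 95% interval 383 to 440) in Cd3-positive nuclei and 2284 CPM (2213 to 2355) in Cd3-negative nuclei. The control library had 257 CPM (242 to 273) in Cd3-positive and 2399 CPM (2345 to 2454) in Cd3-negative nuclei. These sums rested on 825 UMIs in 103 and 4019 UMIs in 355 knockout nuclei, and on 1111 UMIs in 194 and 7461 UMIs in 646 control nuclei. Il22 was thus lower in Cd3-positive nuclei in both libraries, by 5.55-fold in the knockout (log2 ratio -2.47, -2.58 to -2.37) and by 9.33-fold in the control (-3.22, -3.31 to -3.13). All intervals here cover counting error only, and they are too narrow where a few nuclei hold many of the UMIs, since the molecules of 1 nucleus are not independent. The 5 nuclei with the most Il22 held 33.1% of the UMIs of the Cd3-positive knockout group and 23.5% of those of the Cd3-positive control group, against 9.80% and 7.84% in the Cd3-negative groups. A single UMI was all that 58 of the 103 Cd3-positive knockout and 111 of the 194 Cd3-positive control nuclei had, against 84 of 355 and 157 of 646 Cd3-negative nuclei.

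Il17f, which lies next to Il17a, followed Il22. In the knockout library it had 22.4 CPM (45 UMIs in 22 nuclei) in Cd3-positive and 111 CPM (195 UMIs in 74 nuclei) in Cd3-negative nuclei up to 4000 UMIs. In the control library it had 17.8 CPM (77 UMIs in 34 nuclei) in Cd3-positive and 116 CPM (362 UMIs in 126 nuclei) in Cd3-negative nuclei. The level in Cd3-positive nuclei was lower by 4.90-fold in the knockout (log2 ratio -2.29, -2.81 to -1.83) and by 6.50-fold in the control (-2.70, -3.08 to -2.35).

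Il17a ran the other way. Its level in the knockout library was 52.8 CPM (43.2 to 63.9) in Cd3-positive nuclei and 13.6 CPM (8.74 to 20.3) in Cd3-negative nuclei, from 106 and 24 UMIs in 25 and 15 nuclei. In the control library it was 30.8 CPM (25.8 to 36.5) and 15.8 CPM (11.7 to 20.8), from 133 and 49 UMIs in 37 and 24 nuclei. Cd3-positive nuclei were higher by 3.81-fold in the knockout (log2 ratio 1.93, 1.30 to 2.66) and by 1.94-fold in the control (0.96, 0.48 to 1.47). One nucleus with 22 UMIs held 20.8% of the Cd3-positive knockout sum, and one with 29 UMIs held 21.8% of the Cd3-positive control sum. Without the Cd3-positive nuclei that carry Kit, Ncr1, Ddc, Cnr2 or Tnfsf11, transcripts of ILC3, the ratio in the knockout was -0.10 (-1.10 to 0.84), from 17 Il17a UMIs. In the control, Cd3-positive nuclei left by the same exclusion still had more Il17a than the 15.8 CPM of Cd3-negative nuclei. Tnfsf11, which encodes RANKL, is also made by activated T cells. Among all genes with at least 20 UMIs over both groups, 7.35% were at least 2-fold higher and 10.5% at least 2-fold lower in Cd3-positive knockout nuclei, and 7.05% and 11.2% in control nuclei. Of the 3 genes with enough UMIs, Il17f and Il22 were past 2-fold lower in both libraries and Il17a past 2-fold higher in the knockout library.

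Iltifb was near the limit of detection. It had 5 UMIs in each of the Cd3-positive and Cd3-negative knockout groups up to 4000 UMIs, and 3 and 5 UMIs in the control groups. Over all kept nuclei it had 27 UMIs in 23 knockout nuclei and 8 UMIs in 8 control nuclei, against 11380 and 12573 UMIs of Il22. Of these, 13 came from Cd3-positive knockout nuclei above 4000 UMIs, where the control library had 0, which allows a level of up to 1.00 CPM (3 counts).

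**Figure D1:**
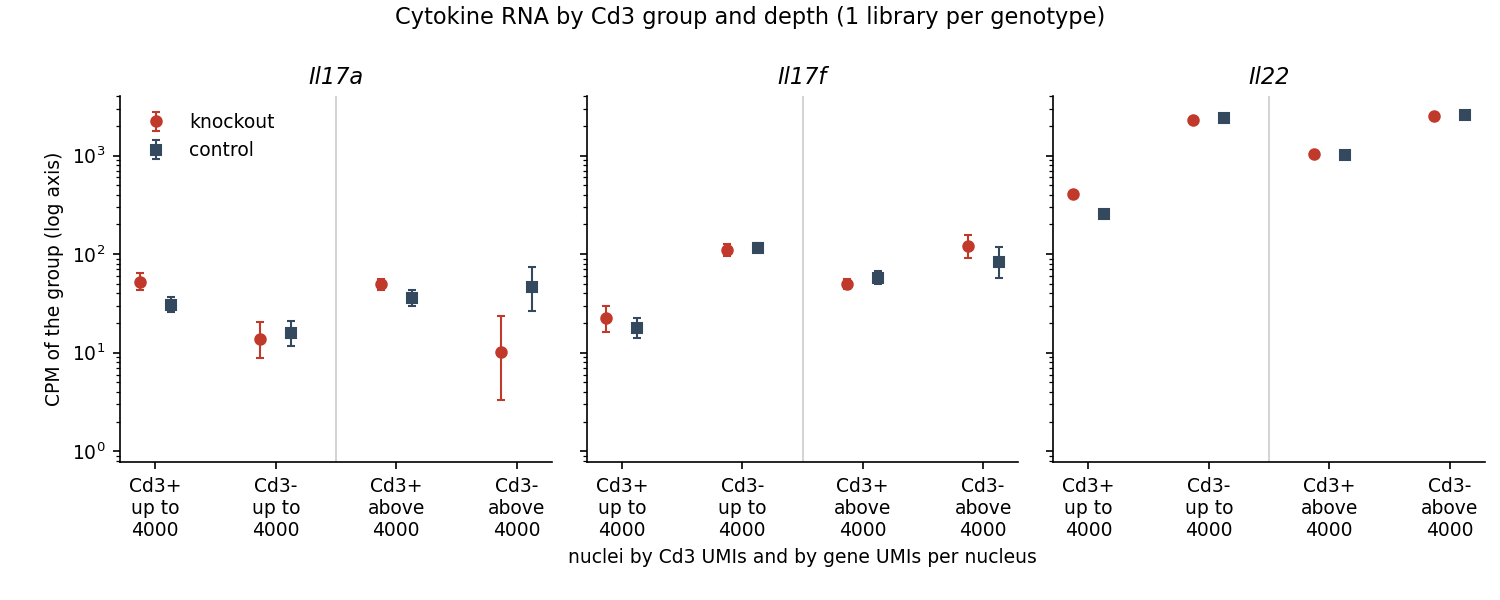
Level of Il17a, Il17f and Il22 in CPM (log axis) in knockout (red circles) and control (blue squares) nuclei, by Cd3 group and by gene UMIs per nucleus. Points are the sum over 1 library and bars exact Poisson 95% intervals (hidden by the symbol where narrow); up to 4000 UMIs, Il17f and Il22 lie lower in Cd3-positive than in Cd3-negative nuclei and Il17a lies higher, at 52.8 against 13.6 CPM in the knockout.

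The same order appeared in the share of nuclei with a UMI after every nucleus had been thinned to 1000 UMIs. Il22 was found in 6.79% of 854 Cd3-positive and 35.9% of 838 Cd3-negative knockout nuclei up to 4000 UMIs, and in 6.17% of 1978 and 34.4% of 1553 control nuclei. Il17f was found in 1.17% and 6.56% of knockout nuclei and in 1.01% and 5.60% of control nuclei. Il17a was found in 1.99% (1.16 to 3.17) and 0.95% (0.41 to 1.87) of knockout nuclei and in 1.21% (0.78 to 1.80) and 0.90% (0.49 to 1.51) of control nuclei, with Clopper-Pearson 95% intervals that overlap. Thinning left out 28 and 54 knockout and 52 and 92 control nuclei. Before thinning the Il22 shares were 11.7% and 39.8% in the knockout and 9.56% and 39.3% in the control. As a background, Cd3-negative nuclei with at least 10 UMIs of Jchain, a plasma-cell gene, held 17 Il22 UMIs in 2 of 8 knockout nuclei, and 1 Il22 UMI in 1 of 12 control nuclei (8.33%, 0.21 to 38.5), at median depths of 5820 and 5675 UMIs. Kit was found in 2 of the 8 knockout nuclei and in 0 of the 12 control nuclei. None of these nuclei had a UMI of Il17a or Il17f, which allows shares with a UMI of up to 37.5% and 25.0%. A broader group, of nuclei with at least 3 UMIs of B-cell, myeloid, epithelial or stromal genes and none of Kit, Il1r1 and Ncr1, had Il22 in 6 of 33 knockout nuclei (18.2%, 6.98 to 35.5) and 20 of 60 control nuclei (33.3%, 21.7 to 46.7), at median depths of 2620 and 2075.5 UMIs. It had Il17a in 1 knockout and 2 control nuclei (3.03% and 3.33%) and Il17f in 1 and 4. The genes of this broader group included Zbtb46 and Pecam1. Zbtb46 gave 718 of 747 dendritic or myeloid UMIs in Cd3-negative knockout nuclei up to 4000 UMIs and 1269 of 1307 in control nuclei. Pecam1 gave 257 of 258 and 450 of 450 stromal UMIs there. The group is thus not shown to be free of lymphoid nuclei, so its shares cannot serve as a background. The unthinned shares of Cd3-positive nuclei with Il22 or Il17a lay below them, and the shares are not read as expression. Up to 4000 UMIs, 30 knockout and 47 control Cd3-positive nuclei had more than 5 UMIs of Il22, and 4 and 7 had more than 5 of Il17a. Such nuclei were not counted in the Jchain and broader groups, and the 17 Il22 UMIs of the Jchain knockout nuclei lay in 2 nuclei.

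Divided at 4000 UMIs, depth likewise set Il17a apart from Il17f and Il22. Within Cd3-positive nuclei, Il22 was lower up to 4000 UMIs than above, at 411 against 1045 CPM in the knockout (log2 ratio -1.35, -1.45 to -1.24) and 257 against 1022 CPM in the control (-1.99, -2.09 to -1.89). Il17f was also lower, at 22.4 against 49.8 CPM (-1.14, -1.64 to -0.69) and at 17.8 against 57.6 CPM (-1.69, -2.10 to -1.30). The ratio of Il17a had an interval across 0, at 52.8 against 49.2 CPM in the knockout (0.10, -0.24 to 0.43) and 30.8 against 36.2 CPM in the control (-0.23, -0.61 to 0.15). Kit moved with Il22 and Il17f, with 72.7 against 195 CPM in Cd3-positive knockout and 75.0 against 229 CPM in Cd3-positive control nuclei. Whether deep Cd3-positive nuclei contain RNA of more than 1 cell was not tested. In Cd3-negative nuclei Il22 had 2284 and 2514 CPM in the knockout and 2399 and 2561 CPM in the control, up to and above 4000 UMIs. Above 4000 UMIs, Il22 remained lower in Cd3-positive than in Cd3-negative nuclei (log2 ratio -1.27 in the knockout and -1.33 in the control), but above 6000 UMIs the control ratio turned to 0.78 (0.47 to 1.12), from 1771 Cd3-positive and 84 Cd3-negative UMIs. Il17f above 4000 UMIs had ratios of -1.28 (-1.69 to -0.84) in the knockout and -0.56 (-1.10 to 0.06) in the control. In the knockout, its 59 Cd3-negative UMIs lay in 14 nuclei. That ratio changed sign when the 5 nuclei with the most Il17f UMIs of each Cd3 group were left out. Il17a above 4000 UMIs had 49.2 CPM in Cd3-positive and 10.2 CPM in Cd3-negative knockout nuclei (2.13, 1.03 to 3.90), from 250 and 5 UMIs. It had 36.2 CPM in Cd3-positive and 45.9 CPM in Cd3-negative control nuclei (-0.38, -1.09 to 0.49), where 13 of the 17 Cd3-negative UMIs lay in 1 nucleus. The median gene had ratios of 0.11 in the knockout and 0.17 in the control in this comparison. The Cd3-negative groups above 4000 UMIs also carried 2970 CPM in the knockout and 6918 CPM in the control of a B-cell list of 6 genes, of which Jchain alone gave 2804 and 6774 CPM. An epithelial list of 6 genes summed to 170 and 535 CPM in the same groups, against 6.82 and 11.6 CPM in Cd3-negative nuclei up to 4000 UMIs. The part of these transcripts in the ratios was not tested.

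Other transcripts in the same nucleus marked where each cytokine was high. Among Cd3-negative nuclei up to 4000 UMIs, Il22 stood at 3113 CPM in knockout and 3408 CPM in control nuclei with Kit, against 1401 and 1353 CPM in those without. It was low in the few Cd3-negative nuclei with Foxp3, the regulatory T-cell factor (134 CPM in 23 knockout and 157 CPM in 57 control nuclei), and in those with Tbx21, the T-bet gene (240 CPM in 58 and 443 CPM in 90 nuclei). In Cd3-positive nuclei, those with Kit had 2780 CPM of Il22 in the knockout and 1408 CPM in the control, against 156 and 127 CPM without Kit. The 72 knockout and 167 control nuclei with Kit thus held 543 of the 825 and 617 of the 1111 Il22 UMIs of Cd3-positive nuclei. Ccr6, a chemokine receptor of Th17 cells and ILC3, marked a similar contrast, at 1656 against 296 CPM in knockout and 964 against 200 CPM in control nuclei. Cd3-negative nuclei with Ncr1, which encodes NKp46, had 2237 CPM of Il22 in 34 knockout and 2253 CPM in 40 control nuclei. These had no UMI of Il17a, which allows up to 8.82% and 7.50% of such nuclei with a UMI and says nothing of nuclei that express the gene below detection.

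Il17f in Cd3-negative nuclei was also higher with Kit, at 142 against 77.4 CPM in the knockout and 149 against 82.5 CPM in the control. Il17a showed no such contrast beyond its intervals, with 16.5 CPM with and 10.6 CPM without Kit in knockout, and 11.4 CPM with and 20.3 CPM without Kit in control nuclei, and the intervals overlapped within each library. Among Cd3-positive nuclei, Il17a was low with Foxp3, at 18.1 CPM (4 UMIs in 1 of 96 nuclei) in the knockout and 3.53 CPM (2 UMIs in 242 nuclei) in the control. With a constant-region transcript of gamma delta T-cell receptors, Il17a had 11.9 CPM in 70 knockout nuclei (2 UMIs) and 97.4 CPM in 123 control nuclei (27 UMIs in 4 nuclei).

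**Figure D2:**
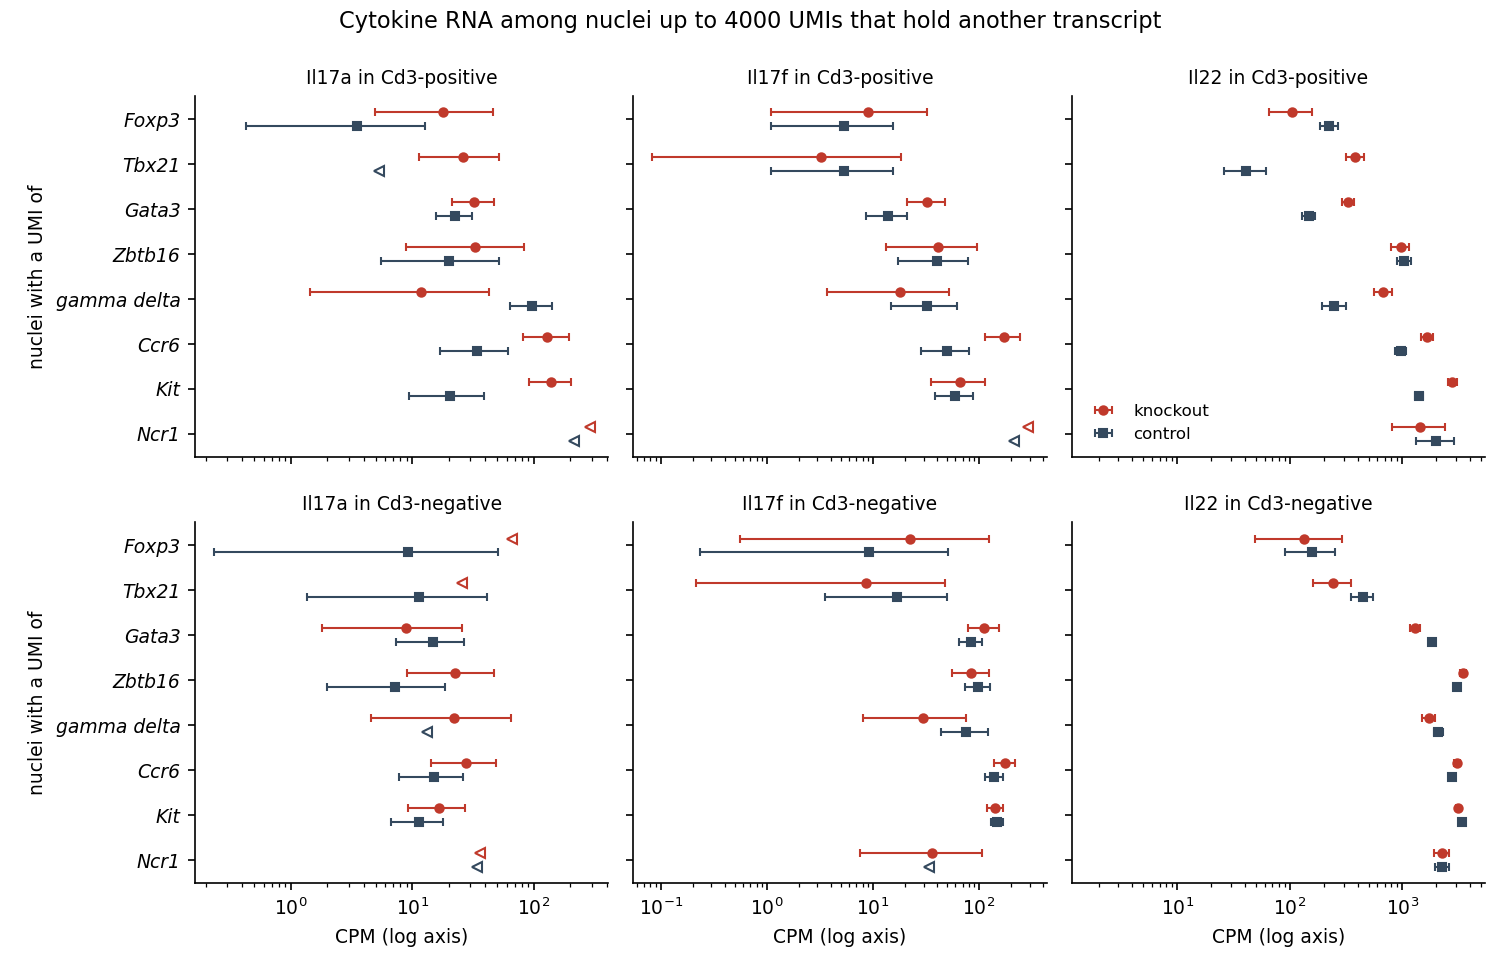
Level of Il17a, Il17f and Il22 (CPM, log axis) in nuclei up to 4000 UMIs that hold a UMI of the gene named on the left, in Cd3-positive (top) and Cd3-negative nuclei (bottom). Red circles are knockout and blue squares control, bars are exact Poisson 95% intervals, and open triangles mark groups with no UMI at the limit that 3 counts give; in Cd3-positive nuclei Il22 reaches 2780 CPM in knockout and 1408 CPM in control nuclei with Kit.

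Il17a and Il17f often lay in nuclei with another of these cytokines, whereas most nuclei with Il22 held neither of them. In Cd3-positive nuclei up to 4000 UMIs, Il17f was found in 7 of 25 knockout nuclei with Il17a (28.0%, 12.1 to 49.4) and in 7 of 37 such control nuclei (18.9%, 7.96 to 35.2), against 1.75% and 1.35% of the nuclei without Il17a. Il22 accompanied Il17f in 13 of 22 knockout nuclei (59.1%) and 13 of 34 control nuclei (38.2%), against 10.5% and 9.07% of those without Il17f. In Cd3-negative nuclei, Il22 was found in 55 of 74 knockout nuclei (74.3%, 62.8 to 83.8) and 88 of 126 control nuclei (69.8%, 61.0 to 77.7) with Il17f, against 36.7% in both libraries without it. Il17f was found there in 5 of 15 knockout and 8 of 24 control nuclei with Il17a, 33.3% in both. Of the nuclei with Il22, 86 of 103 Cd3-positive knockout and 173 of 194 Cd3-positive control nuclei, and 295 of 355 and 549 of 646 Cd3-negative ones, had no UMI of Il17a or Il17f. Nuclei with a cytokine UMI were deeper, with medians of 3050 against 2117 UMIs for Il17f in Cd3-positive knockout nuclei and 2567 against 1974 in control nuclei, which raises the shares of every gene.

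The genes whose RNA went most with each cytokine, by CPM in nuclei with its UMI over nuclei without and taking the lower of both libraries' ratios, differed between the Cd3 groups. With Il17a in Cd3-positive nuclei, the gene ranked first was Il23r, the IL-23 receptor chain, at 799 against 196 CPM in knockout (log2 ratio 2.04) and 590 against 200 CPM in control nuclei (1.57). Next came Il22 (1.32 and 2.78), the transcription factor gene Zeb2 (1.27 and 1.39), Nebl, Ctla2a, D16Ertd472e, Atf6, Ikzf3 (the Ikaros family factor Aiolos, 0.95 and 1.11), Ostf1 and March3. In Cd3-negative nuclei the ratios with Il17a were smaller, led by Fam155a (0.86 and 1.25), Cmip and Cd83, followed by Ostf1, Nfkb1, Il22, Arhgap31, Mpp7, Ly6e and Tnfaip3. Il17f in Cd3-positive nuclei went most with Il17a itself, at 839 against 26.3 CPM in knockout (5.00) and 398 against 22.9 CPM in control nuclei (4.13). Behind it were Il22 (3.59 and 2.82), Pxdc1, Plekhg1, Zmat4, Dscam, Clcn3, Il23r, Gem and the hexokinase gene Hk2. In Cd3-negative nuclei Il17f went with Plek (2.86 and 1.47), Timp3, Slc15a3, Ankrd33b, Gm42031, Vegfa, Il1r2 (the decoy receptor of IL-1), Ccr7, Igfbp7 and Il22 (0.99 and 1.80). For Il22 in Cd3-positive nuclei the list was Ptprm (3.82 and 3.78), Vegfa (3.99 and 3.54), Myof, Arhgef28, Tgm2, Plcg2, Fam155a, Plekhg1, Dscam and Ccdc184. In Cd3-negative nuclei it was Tmem132d (2.25 and 2.71), Zbtb7c, Il17f (2.44 and 2.11), Cacnb2, Cd93, Plek, Blk, Galnt17, Bend4 and Stab2. The 30 UMIs that this ranking needed were reached by 403 genes in Cd3-positive and 195 in Cd3-negative nuclei for Il17a. For Il17f 390 and 1074 genes reached them, and for Il22 1811 and 3738. The lists for rare cytokines were thus drawn from fewer genes, and the Cd3 groups from different sets of genes. The part of this in the difference between the lists was not tested. For Il17a in Cd3-negative nuclei, 11 genes passed and 10 are named.

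Genes of the type 17 pathway divided between the Cd3 groups as well. Of 43 listed genes, 35 in the knockout and 36 in the control library had at least 20 UMIs over both Cd3 groups up to 4000 UMIs. In Cd3-positive nuclei 6 were at least 2-fold higher and 8 lower in the knockout, beside 7.35% higher and 10.5% lower of all genes, and 8 higher and 8 lower in the control, beside 7.05% and 11.2%. The median log2 ratio of the list was 0.24 in the knockout and 0.40 in the control, beside 0.08 and 0.06 over all genes tested. Lower in Cd3-positive nuclei were the receptor genes Il23r (log2 ratio -2.45 and -2.46), Il1r1, the IL-1 receptor (-2.65 and -2.92), and Ccr6 (-1.79 and -2.29). Lta (lymphotoxin alpha, -2.25 and -2.29) and Il17re, a receptor chain for IL-17C (-2.20 and -2.47), were lower too. Higher were Il21, a cytokine of helper T cells (12.0 against 0.57 CPM in knockout, 9.95 against 2.89 CPM in control), the T-cell factor Bcl11b (1.34 and 1.43), the kinase gene Jak2 (1.23 and 1.18), Hif1a (1.31 and 1.20) and Il21r (1.21 and 1.39). Stat3, which transmits IL-23 signals, was higher by less than 2-fold (0.58 and 0.57), and the transcription factor gene Rora was lower by less than 2-fold (-0.68 and -0.70).

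Between genotypes, the ratios of the cytokines depended on which nuclei were counted. In Cd3-positive nuclei up to 4000 UMIs, Il17a had 52.8 CPM in the knockout and 30.8 CPM in the control (log2 ratio 0.78, 0.40 to 1.16). Il17f had 22.4 CPM in the knockout and 17.8 CPM in the control (0.34, -0.23 to 0.88), and Il22 had 411 and 257 CPM (0.68, 0.54 to 0.81). In Cd3-negative nuclei the ratios were -0.19 (-0.98 to 0.52) for Il17a, -0.07 (-0.33 to 0.18) for Il17f and -0.07 (-0.13 to -0.02) for Il22. Above 4000 UMIs, Il17a in Cd3-negative nuclei had 10.2 CPM in the knockout and 45.9 CPM in the control (-2.07, -3.96 to -0.67), from 5 and 17 UMIs. Up to 4000 UMIs, none of the 3 was past 2-fold in either group. Among all genes, 1.66% were at least 2-fold higher and 1.65% lower in Cd3-positive knockout nuclei than in control nuclei, and 1.64% higher and 1.99% lower in Cd3-negative nuclei. With 1 library per genotype, the difference between libraries cannot be told apart from one between genotypes.

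The higher Il17a of Cd3-positive knockout nuclei rested on nuclei near the depth limit. With a limit of 3000 UMIs, 36 of its 106 UMIs remained in the knockout and 109 of 133 in the control, and the ratio was -0.35 (-0.95 to 0.19). Il22 had a ratio of -0.05 (-0.27 to 0.16) when 2 Cd3 UMIs were required. Among Cd3-positive nuclei without Kit, Ncr1, Ddc, Cnr2 or Tnfsf11, all 3 genes were lower in the knockout: Il17a had 12.6 CPM in 625 knockout nuclei and 34.7 CPM in 1471 control nuclei (-1.42, -2.29 to -0.71). Il17f there had 2 UMIs in knockout and 30 UMIs in control nuclei (-2.47, -5.88 to -0.79), and Il22 had 40.8 and 67.6 CPM (-0.72, -1.19 to -0.29). With Tnfsf11 not used for the exclusion, Il17a had a ratio of 0.13 (-0.34 to 0.57) and Il22 one of 0.24 (0.02 to 0.46). In the Cd3-positive nuclei that did carry any of the 5 transcripts, Il22 had 1168 CPM in 257 knockout nuclei and 674 CPM in 559 control nuclei. Kit in Cd3-positive nuclei was 72.7 CPM in the knockout and 75.0 CPM in the control. Above 4000 UMIs, the ratios in Cd3-positive nuclei were 0.44 (0.11 to 0.78) for Il17a, -0.21 (-0.50 to 0.08) for Il17f and 0.03 (-0.03 to 0.10) for Il22.

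**Figure D3:**
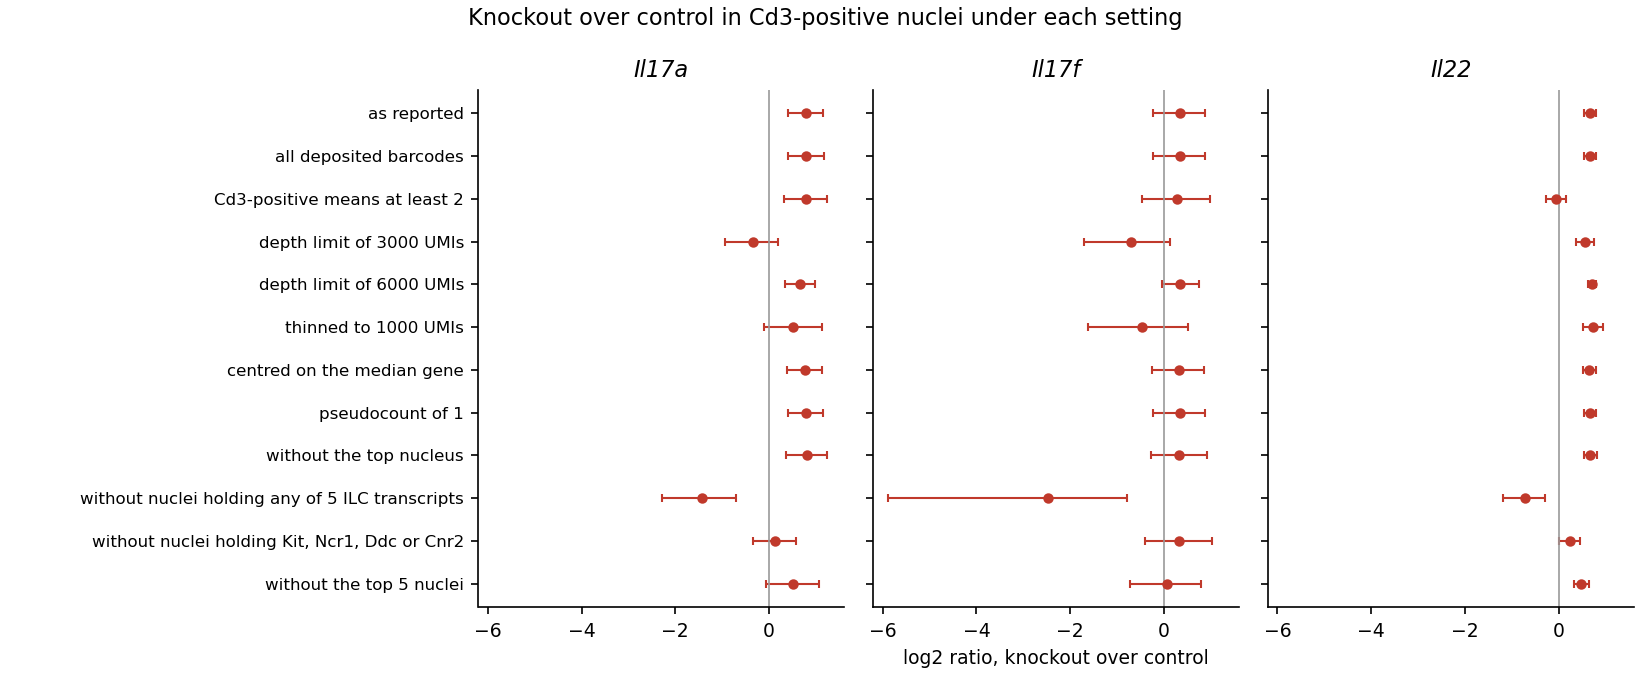
Log2 ratio of knockout over control for Il17a, Il17f and Il22 in Cd3-positive nuclei up to 4000 UMIs, as reported (top) and under each other choice of nuclei or scaling (below). Points are 1 library over 1 library and bars exact 95% counting intervals; all 3 genes move to the left of 0 when nuclei with any of 5 ILC transcripts are left out, with Il22 at -0.72 against 0.68 as reported.

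Of the type 17 list, 35 genes in Cd3-positive and 33 in Cd3-negative nuclei had enough UMIs to compare the genotypes, and 0 of them were past 2-fold in either direction. The shares over all genes were 1.66% higher and 1.65% lower in Cd3-positive and 1.64% and 1.99% in Cd3-negative nuclei, so few of a list of this size would be past 2-fold at those shares. The list's median log2 ratio was 0.01 in Cd3-positive and 0.05 in Cd3-negative nuclei, beside 0.01 and -0.01 over all genes tested. Csf2, which encodes GM-CSF, had the largest ratio of the list in Cd3-positive nuclei, at 50.8 CPM in the knockout and 30.5 CPM in the control (0.74, 0.35 to 1.12). Il23r had 217 CPM in the knockout and 208 CPM in the control (0.06, -0.11 to 0.23). In Cd3-negative nuclei the ends of the list were Socs3, a feedback inhibitor of STAT signalling, at 63.1 CPM in the knockout and 88.4 CPM in the control (-0.48, -0.82 to -0.16), and Irf4, at 49.4 and 35.7 CPM (0.47, 0.05 to 0.89).

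Accessibility around the genes was summarised over 17 peaks near Il17a and Il17f, all called in both libraries, and 19 near Il22 and Iltifb, of which 15 were called in both, 2 in the knockout and 2 in the control only. Values are CPM of the counts in peaks shared by both libraries, and ratios have counting intervals on fragments. Summed within 50 kb, accessibility was lower in Cd3-positive than in Cd3-negative nuclei around all 4 genes. The log2 ratio was -1.15 in the knockout and -1.23 in the control around Il17a, -0.76 and -0.84 around Il17f, -0.78 and -0.57 around Il22, and -2.26 and -1.86 around Iltifb. Around Il17a the peaks thus followed Il17f and Il22, and not the RNA of Il17a, which was higher in Cd3-positive nuclei. Both Il17 windows share several peaks, since the genes lie 53.4 kb apart. Near Il17a and Il17f, 0 of the 16 peaks with at least 20 counts were 2-fold higher and 7 were 2-fold lower in Cd3-positive knockout nuclei, and 1 and 11 of 17 in control nuclei. Near Il22 and Iltifb, 0 of 15 were higher and 9 lower in the knockout, and 1 of 17 was higher and 8 lower in the control. Shares over all peaks, here and below, are for those matching exactly 1 peak of the other library and having at least 20 counts. Of these, 13.1% were 2-fold higher and 18.2% lower in Cd3-positive knockout nuclei, and 13.2% and 19.7% in control nuclei. The member counts near Il22 and Iltifb also include peaks called in 1 library only.

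The Il22 start showed the widest gap among the start sites. Its peak (chr10:118204164-118205082 in the knockout and chr10:118204148-118205047 in the control) had 2.01 in Cd3-positive and 23.0 in Cd3-negative knockout nuclei (log2 ratio -3.47, -4.69 to -2.40). In control nuclei it had 3.04 and 20.7 (-2.75, -3.54 to -2.04). A peak over the start of Il17f, which overlaps an annotated exon, had 4.82 in Cd3-positive and 18.0 in Cd3-negative knockout nuclei (-1.89, -2.76 to -1.17), and 4.44 and 19.4 in control nuclei (-2.12, -2.81 to -1.51). At the start of Il17a the peak had 2.81 in Cd3-positive and 1.79 in Cd3-negative knockout nuclei (0.64, -0.78 to 2.33), and 2.39 and 2.96 in control nuclei (-0.31, -1.39 to 0.87), from 14 to 30 counts per group. Between Il17a and Il17f, a peak 29.0 kb after the start of Il17a had 10.5 in Cd3-positive and 29.2 in Cd3-negative knockout nuclei (-1.48, -2.05 to -0.96) and 12.2 and 35.3 in control nuclei (-1.53, -1.92 to -1.12). No called peak covered the start of Iltifb. The nearest, 1.64 kb into the gene in the knockout and 1.58 kb in the control, did not differ between Cd3 groups beyond its intervals (-0.12 and -0.11), although a peak 12.7 kb before the start had ratios of -4.34 and -2.57. In Cd3-positive nuclei that peak had 4 counts in the knockout and 22 in the control, against 95 and 111 in Cd3-negative nuclei. For comparison, the peak at the start of Mcm3, a DNA replication gene, had ratios of 0.11 and 0.06, and an intergenic peak 32.3 kb before Il22 had ratios of -0.04 and 0.12.

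**Figure D4:**
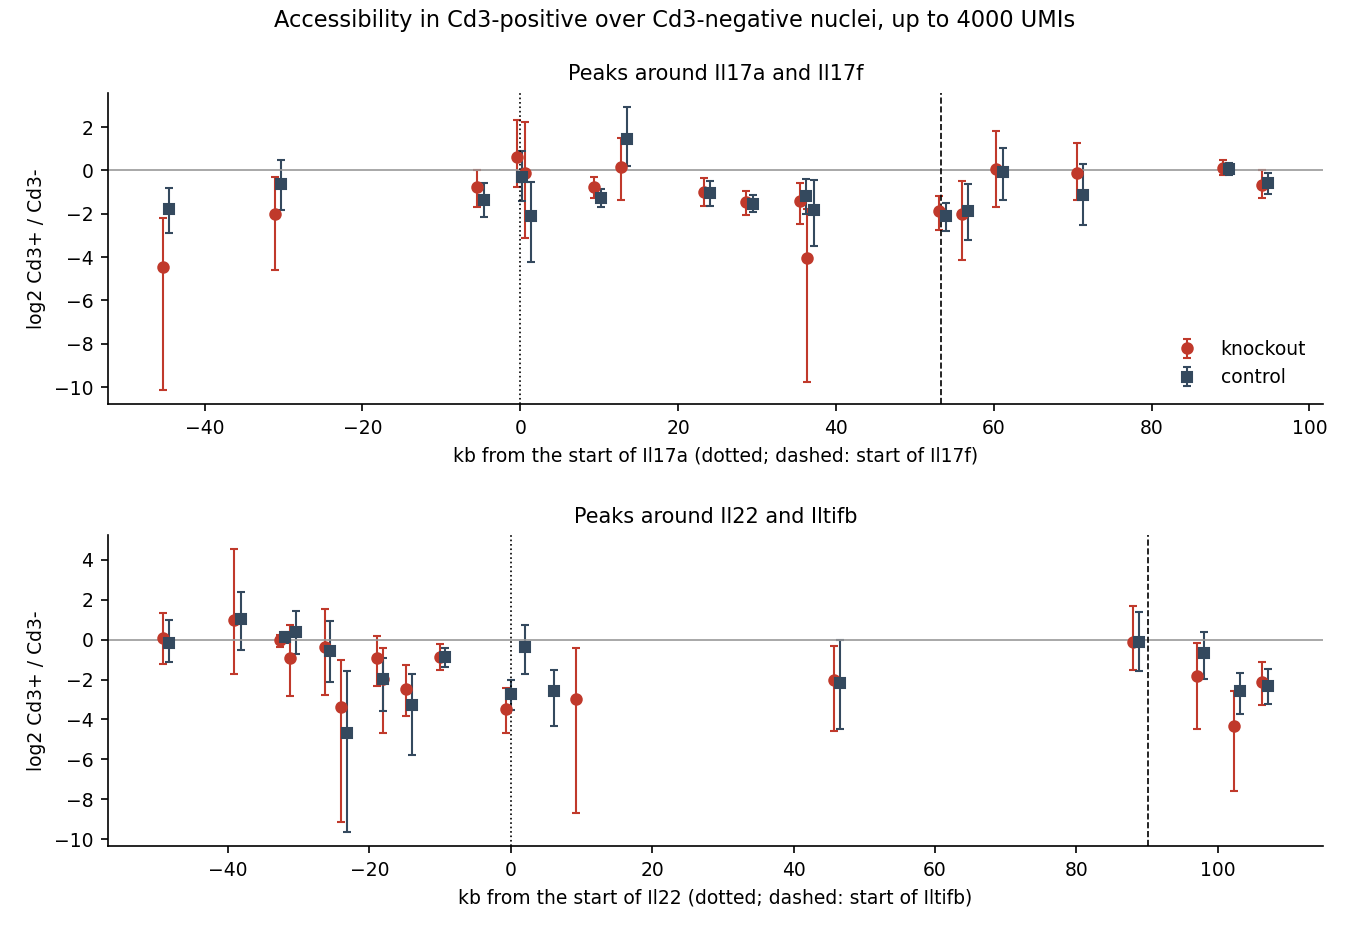
Log2 ratio of accessibility in Cd3-positive over Cd3-negative nuclei up to 4000 UMIs for each peak near Il17a and Il17f (top) and near Il22 and Iltifb (bottom), against its distance from the start of Il17a or Il22 in kb; knockout points (red circles) and control points (blue squares) are moved 0.4 kb apart. Bars are 95% counting intervals; the Il22 start lies at -3.47 in the knockout and -2.75 in the control, while the Il17a start has intervals across 0 in both.

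Genotypes differed less in accessibility than Cd3 groups did. In Cd3-positive nuclei the summed log2 ratio of knockout over control was 0.00 (-0.29 to 0.25) around Il17a, 0.03 (-0.17 to 0.21) around Il17f, -0.10 (-0.34 to 0.12) around Il22 and -0.28 (-1.01 to 0.44) around Iltifb. In Cd3-negative nuclei it was -0.08, -0.06, 0.10 and 0.13, each with an interval across 0. Single peaks past 2-fold in Cd3-positive nuclei numbered 1 higher and 2 lower of 15 near Il17a and Il17f, and 1 higher and 4 lower of 12 near Il22 and Iltifb, beside 4.55% higher and 2.78% lower over all peaks. Of these, the interval excluded 0 for 1 peak, 44.8 kb before Il17a, with 2 knockout and 24 control counts (-2.59, -8.30 to -0.13). In Cd3-negative nuclei 1 of 17 and 0 of 14 peaks were past 2-fold, the 1 being lower, beside 3.42% higher and 3.14% lower over all peaks. A peak 14.5 kb before Il22 in the knockout (14.4 kb in the control) had an interval above 0 there, at 10.1 in the knockout and 5.22 in the control (0.95, 0.20 to 1.70).

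Within a library and Cd3 group, the start peaks of Il22 and Il17f went with the RNA of the same nucleus in the groups given here. The Il22 start had 33.7 in Cd3-negative knockout nuclei with an Il22 UMI and 13.6 in those without (log2 ratio 1.30, 0.63 to 1.98), and 31.2 and 12.2 in control nuclei (1.35, 0.76 to 1.99). In Cd3-positive control nuclei it had 14.1 with and 1.42 without Il22 (3.30, 1.77 to 4.73). The Il17f start had 35.5 with and 16.1 without Il17f in Cd3-negative knockout nuclei (1.16, 0.21 to 2.03) and 37.0 and 17.7 in control nuclei (1.08, 0.21 to 1.82). In Cd3-positive nuclei the Il17f start was also higher in nuclei with Il17a, at 39.6 with and 3.61 without in the knockout (3.50, 1.62 to 5.04) and 43.1 and 3.69 in the control (3.60, 1.79 to 4.98), although each value with Il17a rests on 10 counts. The Il17a start itself had 43.1 with and 1.59 without Il17a in Cd3-positive control nuclei (4.79, 2.78 to 6.37), from 10 and 19 counts. In Cd3-positive knockout nuclei it had 15.8 with, from 4 counts, and 2.36 without (2.88, -0.58 to 4.94). In Cd3-negative control nuclei it had 26.0 with, from 4 counts, and 2.60 without (3.47, 0.13 to 5.47). In Cd3-negative knockout nuclei it had 0 counts in 15 nuclei with Il17a and 14 counts without, too few to read a ratio. A peak 9.78 kb after the start of Il17a had 71.2 with and 12.6 without Il17a in Cd3-positive knockout nuclei (2.53, 1.48 to 3.64), and 73.3 and 11.7 in control nuclei (2.68, 1.52 to 3.71).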

How the data were processed

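Both libraries were deposited by the authors as raw UMI counts per gene and as counts per peak, on mm10. The headers of the files name Cell Ranger ARC 2.0.1, and the build comes from the submitters' processing notes; filters before deposit are not stated in either. Per the file headers the values are whole-number counts. Peaks were listed separately per library. Of peak values, 90.7% (knockout) and 91.7% (control) were even, so intervals used fragments (count divided by 2, rounded up). Nuclei had at least 500 UMIs, 300 genes and at most 10% mitochondrial UMIs. No doublet caller was run; depth groups and ILC-transcript exclusions stand beside the results. UMIs were summed per library and group as CPM. Log2 ratios used a pseudocount of 0.5 with exact conditional 95% intervals, sums exact Poisson and shares Clopper-Pearson intervals. They were computed with Python 3.11.15, numpy 2.4.6 and scipy 1.17.1. Ratios and their intervals were also run on simulated Poisson counts, which the intervals assume. The simulation leaves out the clumping of UMIs in single nuclei, so it cannot show the coverage for such counts. Peaks of both libraries were joined where they overlapped by at least 1 base (85.8% of knockout and 87.7% of control peaks).

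The members and gene lists were chosen with earlier results of these data known. One gene of the type 17 and ILC3 lists is not reported here and was left out of their counts and sums. Named genes were the 4 members, members of the type 17 list, and the 10 genes most like Il17a, Il17f and Il22 in each Cd3 group, by the lower of both libraries' ratios, with at least 30 UMIs, intervals above 0, and no antigen receptor, mitochondrial or sex-linked genes. With 1 library per genotype no test was made. Alternatives were all deposited barcodes, other Cd3, depth and window limits, thinning, median centring, a pseudocount of 1, scaling by all peaks, stricter peak overlap, fragments, and leaving out the nucleus with the most UMIs or nuclei with ILC transcripts.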

Additional observations from a re-analysis of the deposited data

Results flagged for a closer look

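Knockout over control went opposite ways in the Cd3 groups for 2 genes, with both intervals clear of 0 as reported. Il22 up to 4000 UMIs had a log2 ratio of 0.68 (0.54 to 0.81) in Cd3-positive and -0.071 (-0.13 to -0.02) in Cd3-negative nuclei. Il17a above 4000 UMIs had 0.44 (0.11 to 0.78) in Cd3-positive and -2.07 (-3.96 to -0.67) in Cd3-negative nuclei, where the knockout had 5 UMIs in 3 nuclei and the control 17 UMIs, 13 of them in 1 nucleus. Other choices of nuclei turned these directions. After thinning to 1000 UMIs, Il22 had 0.73 in Cd3-positive and 0.087 in Cd3-negative nuclei, and Il17a above 4000 UMIs had 0.14 and 0.56. Il22 had -0.054 in Cd3-positive nuclei with 2 Cd3 UMIs, and -0.0082 in Cd3-negative nuclei without Trac, Trbc1, Trbc2 or Themis. Neither difference between the Cd3 groups was tested, since each genotype has 1 library.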

How the results depend on the processing

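Of 472 recomputed values, 352 stayed within the counting interval of the reported value, 109 left it, and 11 changed sign where that interval excluded 0. A change of sign where the interval spanned 0 is counted among the 352 or the 109. All values here are log2 ratios in nuclei up to 4000 UMIs, or up to the other limit named, unless stated. For knockout over control in Cd3-positive nuclei, a depth limit of 3000 UMIs gave -0.35 for Il17a and -0.70 for Il17f, and leaving out Cd3-positive nuclei with any of the 5 ILC transcripts gave -1.42 for Il17a, -2.47 for Il17f and -0.72 for Il22. With Kit, Ncr1, Ddc or Cnr2 alone as the exclusion, Il17a had 0.13 and Il22 0.24. Thinning to 1000 UMIs gave -0.45 for Il17f, 2 Cd3 UMIs gave -0.054 for Il22, and leaving out the 5 nuclei with the most UMIs of a gene gave 0.49 for Il22. In Cd3-negative nuclei, Il22 had 0.087 after thinning and -0.0082 without nuclei holding Trac, Trbc1, Trbc2 or Themis, and Il17a above 4000 UMIs had 0.56 after thinning.

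For Cd3-positive over Cd3-negative nuclei in the knockout, Il17a had 1.06 at 3000 UMIs and -0.10 without ILC transcripts. Il17f had -3.45 at 3000 UMIs, -3.07 thinned, -5.91 without ILC transcripts and -2.81 without the top 5 nuclei. It had -2.90 without Cd3-negative nuclei holding Trac, Trbc1, Trbc2 or Themis, called T-cell transcripts below. Il22 had -3.15 at 3000 and -1.76 at 6000 UMIs, -2.67 thinned, -3.56 with 2 Cd3 UMIs and -5.79 without ILC transcripts. It had -3.96 without the 4 named ones, -2.90 without the top 5 nuclei and -2.97 without T-cell transcripts. In the control, Il17f had -2.23 at 6000 UMIs, -3.51 without ILC transcripts, -3.21 without the 4 named ones and -3.25 without T-cell transcripts. Il22 had -3.75 at 3000 and -2.55 at 6000 UMIs, -3.58 with 2 Cd3 UMIs and -5.15 without ILC transcripts. It had -4.28 without the 4 named ones, -3.49 without the top 5 nuclei and -3.66 without T-cell transcripts. Above the depth limit, Il17f in the knockout had 0.46 without the top 5 nuclei, and Il22 in the control had 0.78 above 6000 UMIs. Up to over above 6000 UMIs in Cd3-negative nuclei gave 0.21 for Il22 in the knockout and 0.095 for Il17a in the control.

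For peaks, Cd3-positive over Cd3-negative, a 25 kb window gave -0.69 around Il17a in the knockout, -1.52 and -1.56 around Il17f and -1.93 and -1.85 around Il22 in the knockout and the control. A 100 kb window gave -0.80 and -0.89 around Il17a, -0.26 and -0.19 around Il22 and -1.49 and -1.28 around Iltifb.

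The exclusion by 4 transcripts, the one by top 5 nuclei and the Jchain background were chosen after seeing the data. Leaving out nuclei or peaks changes which counts enter; beyond that, the cause was not tested. No paired analysis was possible because each genotype has 1 library. Iltifb has too few UMIs for a ratio to be read, and in Cd3-negative nuclei the 24 knockout and 49 control UMIs of Il17a leave an interval from -0.98 to 0.52 for knockout over control.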
